A study of Mus musculus with 2 samples.

Results

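Foxo1, Foxo3, Txnip, Cat, Sod1, Sod2, Prdx1, Gpx1, Sesn1 and Txn1 are 10 genes of the Foxo pathway and of oxidant defence, taken by name from the 53273 gene rows whose IDs were matched to the annotation. They were followed in single bone marrow cells of 8-week-old C57BL/6 mice that carry the Fucci reporter, in a study whose subject is the expansion of blood stem cells at rest. In this reporter an orange protein, mKO2, accumulates while cells are in G0 or G1, and a green protein, mAG, accumulates from S phase to mitosis. The 4 gates were mKO2high, mKO2low, mKO2neg and mAG+, with 48 cells each, and they differ in the labels only in this reporter signal. The mKO2high and mKO2low cells formed 1 library and the mKO2neg and mAG+ cells the other, so a difference between gates of different libraries cannot be told apart from a difference between libraries. Strain, tissue, age and the reporter were shared by all gates. Surface markers of the sort, the number of animals and any pooling are details not given in the sources used here.

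Foxo proteins are forkhead transcription factors. Insulin and growth factor signals, relayed by PI3 kinase and Akt, keep them out of the nucleus. When these signals are low they enter it and switch on genes that halt the cell cycle and remove oxidants. In blood stem cells, loss of Foxo proteins raises reactive oxygen species and drives the cells out of quiescence. Txnip binds thioredoxin, blocks it and limits glucose uptake, and it too is known to help keep blood stem cells quiescent. The other members take part in the removal of oxidants: superoxide dismutases (Sod1 in the cytosol, Sod2 in mitochondria) turn superoxide into hydrogen peroxide, and catalase, Gpx1 and Prdx1 break the peroxide down. Thioredoxin (Txn1) recharges peroxiredoxins, and Sesn1 is a stress-induced sestrin that restrains mTORC1.

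Every value below depends on how the deposited gene labels were read, because counts and labels were displaced by 1 gene. Each gene was therefore read from the row of the gene just before it in GENCODE vM21 order. The displacement was checked on genes outside the set. For 12 abundant genes, Actb and Gapdh among them, the rows read in this way held 297188 counts, and the rows under their own labels held 7434. In all 12 the row of the preceding gene was the highest of the 5 rows from 2 before to 2 after. Of 15 S phase genes 13 showed the same, as did 13 of 15 G2/M genes. For the 10 genes themselves the rows read held 75 (Foxo1) to 9921 counts (Gpx1), and the rows under their own labels held 0 to 344.

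The cells gave 7037513 counts, of which mAG+ held 2791584, mKO2neg 1608630, mKO2low 1703263 and mKO2high 934036. The median cell held between 14510.5 counts in mKO2high and 45177 in mAG+. Cells with fewer than 5000 counts numbered 9, 0, 5 and 3 from mKO2high to mAG+. The libraries shared no cell name, and no cell had the same counts as another. In the same gate order and per 1000000 counts (CPM), the 15 G2/M genes summed to 65.3, 153, 907 and 8016 CPM, higher at each step. Of 14 blood stem and progenitor markers, 13 had counts in mKO2high and all 14 in the other gates, with summed levels from 1953 to 2800 CPM. The B cell list (8 genes) summed to 86.7, 104, 127 and 314 CPM, and 3, 3, 6 and 14 cells had counts in at least 2 of its genes. Megakaryocyte markers summed to 424 CPM in mKO2high and 191.6 to 247 CPM elsewhere. T and NK cell markers summed to 4.28 to 40.8 CPM, with Cd3e, Cd3g and Cd8a at 0. Erythroid markers summed to 227 to 385 CPM, granulocyte and monocyte markers to 961 to 1520 CPM with Ctsg and Ly6g at 0, and stroma and endothelium markers to 60.0 to 116 CPM.

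Levels are gate-sum CPM: the counts of a gene over all cells of a gate, per 1000000 counts of that gate. The range given in parentheses after a level is an exact Poisson 95% interval. Each gate is 1 sample without replicates, so intervals cover counting error only, no test was made, and reads are not known to be independent molecules. A gate sum does not tell fewer expressing cells from less RNA per cell, so the share of cells with a count is given beside it. Reads come from the 3′ ends of transcripts, and levels are compared between gates and not between genes.

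Txnip, the thioredoxin inhibitor, was highest in mKO2high cells and lowest in mAG+ cells. Its level was 777 CPM (722 to 836) in mKO2high, 489 CPM (456 to 523) in mKO2low, 599.9 CPM (563 to 639) in mKO2neg and 292 CPM (272 to 313) in mAG+. No 2 gates next to each other in this order had overlapping intervals, and the highest gate stood 2.66 times above the lowest. The order did not follow the reporter step by step, since mKO2neg lay above mKO2low, in the other library. Among cells with at least 5000 counts, the median per cell was 814 CPM in mKO2high, 409 CPM in mKO2low, 529.7 CPM in mKO2neg and 311 CPM in mAG+. Quartiles of single mKO2high cells were 401 and 1027 CPM and those of mAG+ cells 149 and 508 CPM, so single cells of the gates overlapped widely. No cell held more than 9.69% of the Txnip counts of its gate. After thinning every cell to 5000 counts, the share of cells with a Txnip count was 82.1%, 77.1%, 79.1% and 71.1% in the gate order above. The intervals of these shares overlapped.

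All 10 genes are protein coding, and positions are those of GENCODE vM21 on GRCm38. Txnip lies on chromosome 3 (ENSMUSG00000038393.14, 3:96557957-96561883, plus strand), inside the span of the antisense gene Gm15441. Read in the same way, Gm15441 held 37 counts against 3339 for Txnip. The counting's use of strand was not given in the sources used here, so reads of these overlapping genes may not be told apart. Sesn1 lies on chromosome 10 (ENSMUSG00000038332.13, 10:41809935-41908424, plus strand). A forkhead core, GTAAACA on either strand, was searched in RefSeq promoter windows of GRCm38.p6 from 250 bases before to 50 bases after a start site. It was found in windows of 2 of the 10 genes, Txnip and Sesn1, and in 3.65% of all 32851 windows. Sod2, which like Txnip and Sesn1 had its highest gate sum in mKO2high and its lowest in mAG+, had no match in its window. Both windows are shown to 29 bases after the start site, with the match in capitals, at chr3:96557707-96557985 (plus strand) for Txnip and chr10:41810324-41810602 (plus strand) for Sesn1.
Txnip: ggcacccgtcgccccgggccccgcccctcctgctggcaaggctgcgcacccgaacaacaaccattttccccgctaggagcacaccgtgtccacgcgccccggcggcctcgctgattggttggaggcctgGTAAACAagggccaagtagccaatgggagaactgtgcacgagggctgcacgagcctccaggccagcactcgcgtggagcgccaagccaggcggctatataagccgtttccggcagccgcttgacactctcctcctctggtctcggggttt
Sesn1: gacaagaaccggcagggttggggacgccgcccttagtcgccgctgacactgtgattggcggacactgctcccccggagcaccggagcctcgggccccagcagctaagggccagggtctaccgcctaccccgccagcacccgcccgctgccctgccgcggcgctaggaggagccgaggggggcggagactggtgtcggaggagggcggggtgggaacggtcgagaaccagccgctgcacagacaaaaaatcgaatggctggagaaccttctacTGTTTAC
In Txnip the match begins 121 bases before the start site and reads on the strand of the gene. In Sesn1 it reads on the other strand and begins at base 23 after the start site. The whole Sesn1 window lies inside the gene span given above, downstream of the annotated gene start. A match of letters is a description and not a measured binding site.

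Sesn1, the sestrin, had levels of 187 CPM (161 to 217) in mKO2high, 94.5 CPM (80.5 to 110.3) in mKO2low, 114 CPM (97.9 to 131) in mKO2neg and 83.5 CPM (73.1 to 94.9) in mAG+. mKO2high stood apart from the other gates, and mKO2neg, mKO2low and mAG+ followed with overlapping neighbours. The highest gate was 2.24 times the lowest. A single cell held 28% of the mKO2high counts. With equal weight for each cell mKO2neg was highest instead, at 160 CPM, above mKO2high at 139 CPM. The top place of mKO2high thus depended on how cells were weighted. At 5000 counts per cell, 51.3% of mKO2high, 35.4% of mKO2low, 51.2% of mKO2neg and 24.4% of mAG+ cells had a Sesn1 count. At this depth mKO2high and mKO2neg had nearly the same share, and the intervals of all 4 gates overlapped.

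Sod2, the mitochondrial superoxide dismutase (ENSMUSG00000006818.4, 17:13006846-13040063, plus strand), had the widest range over gates of the 10 genes. Its level was 271 CPM (239 to 306) in mKO2high, 143 CPM (126 to 162) in mKO2low, 87.0 CPM (73.2 to 103) in mKO2neg and 73.4 CPM (63.7 to 84.2) in mAG+. The order followed the reporter, the highest gate was 3.69 times the lowest, and only the intervals of mKO2neg and mAG+ overlapped. The share of cells with a Sod2 count at 5000 counts followed the same order, at 51.3%, 41.7%, 27.9% and 17.8%. A single mKO2neg cell held 37.9% of the counts of its gate. The 6 mKO2neg cells with counts in at least 2 B cell markers held 29.1% of the counts of that gate and 5% of its Sod2 counts. Without such cells the Sod2 level was 131 CPM in mKO2low and 117 CPM in mKO2neg, a log2 ratio of -0.17 where all cells gave -0.72.

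**Figure D1:**
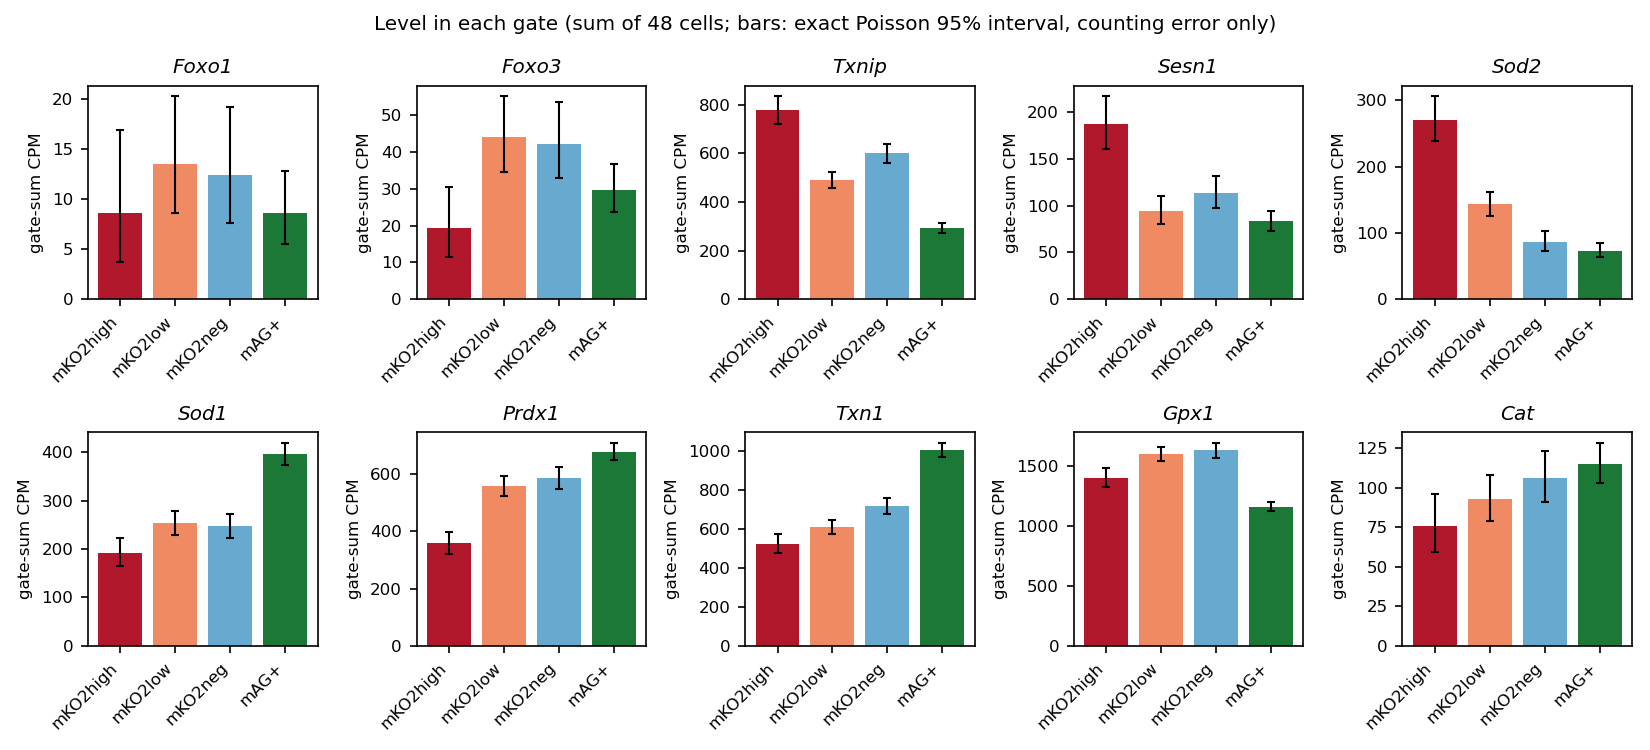
Gate-sum CPM of the 10 genes in the 4 gates, with bars for the exact Poisson 95% interval and a separate vertical scale for each gene. Txnip, Sesn1 and Sod2 are highest in mKO2high, Sod1, Prdx1 and Txn1 are highest in mAG+, and the intervals of Foxo1 overlap in all gates.

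Txn1, the thioredoxin that Txnip inhibits (ENSMUSG00000028367.5, 4:57943373-57956411, minus strand), had the reverse end points of Txnip. Its level was 522 CPM (477 to 571) in mKO2high, 608 CPM (572 to 646) in mKO2low, 716 CPM (675 to 758) in mKO2neg and 1003 CPM (966 to 1040.5) in mAG+. No neighbouring intervals overlapped, and mAG+ stood 1.92 times above mKO2high. The median per cell with at least 5000 counts was 429 CPM in mKO2high and 969.6 CPM in mAG+, where the lower quartile of 805 CPM was above the upper quartile of 784 CPM in mKO2high. The share of cells with a Txn1 count at 5000 counts was 76.9%, 87.5%, 93.0% and 97.8% from mKO2high to mAG+. A processed copy in the annotation, Txn-ps1, held 2 counts against 5474 for Txn1.

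Prdx1, the cytosolic peroxiredoxin, had the same order of gates as Txn1. Its level was 358 CPM (320.3 to 398) in mKO2high, 558 CPM (523 to 595) in mKO2low, 586 CPM (549 to 624) in mKO2neg and 679 CPM (649 to 710.5) in mAG+. mKO2low and mKO2neg overlapped, and mAG+ was 1.90 times mKO2high. The per-cell median was 344 CPM, 526 CPM, 459 CPM and 625 CPM in the same gates. Most cells of each gate had a Prdx1 count at equal depth, with shares of 74.4%, 83.3%, 81.4% and 91.1% that overlapped in their intervals.

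Sod1, the cytosolic superoxide dismutase, was lowest in mKO2high and highest in mAG+ as well. Its level was 193 CPM (166 to 223) in mKO2high, 253 CPM (229.7 to 278) in mKO2low, 247 CPM (224 to 273) in mKO2neg and 396 CPM (373 to 419.9) in mAG+. The middle gates overlapped, and mAG+ stood 2.05 times above mKO2high. At 5000 counts, 43.6% of mKO2high, 62.5% of mKO2low, 53.5% of mKO2neg and 77.8% of mAG+ cells had a Sod1 count. The shares of mKO2high and mAG+ had intervals that did not overlap, 27.8% to 60.4% against 62.9% to 88.8%. Sod1 and Sod2, which act on the same radical in different compartments, had opposite end points: Sod2 was highest and Sod1 lowest in mKO2high.

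Sod1 lies on chromosome 16 (ENSMUSG00000022982.9, 16:90220754-90226329, plus strand) and Prdx1 on chromosome 4 (ENSMUSG00000028691.12, 4:116685544-116700822, plus strand). The core of the antioxidant response element, TGACNNNGC on either strand, is the kind of element that Nrf2 binds. It was found in RefSeq promoter windows of 2 of the 10 genes, Sod1 and Prdx1, and in 12.4% of all 32851 windows. Txn1 and Cat, with the same order of gates as Prdx1, had no match. The windows of Sod1 and Prdx1 are shown to 29 bases after the start site, with the match in capitals. They lie at chr16:90220512-90220790 (plus strand) and chr4:116685349-116685627 (plus strand) of GRCm38.p6.
Sod1: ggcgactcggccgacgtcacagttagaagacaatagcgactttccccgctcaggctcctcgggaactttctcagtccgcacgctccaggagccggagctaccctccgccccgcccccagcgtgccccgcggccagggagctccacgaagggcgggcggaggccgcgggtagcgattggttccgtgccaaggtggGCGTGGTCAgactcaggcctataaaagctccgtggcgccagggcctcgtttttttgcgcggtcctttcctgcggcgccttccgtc
Prdx1: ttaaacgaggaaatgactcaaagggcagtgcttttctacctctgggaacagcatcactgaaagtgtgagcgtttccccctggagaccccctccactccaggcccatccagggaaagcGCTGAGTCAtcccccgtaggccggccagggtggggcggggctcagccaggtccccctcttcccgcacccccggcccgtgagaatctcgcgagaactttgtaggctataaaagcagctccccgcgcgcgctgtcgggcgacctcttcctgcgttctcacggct
Both matches read on the other strand, beginning 56 bases before the start site of Sod1 and 133 bases before that of Prdx1. The exact E-box letters CACGTG were in none of the windows of the 10 genes and in 7.15% of all windows. This says only that these letters are not in these stretches. E-boxes with other letters, single or paired, were not searched. The result therefore does not bear on the Mondo factors, which control Txnip.

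Gpx1, the glutathione peroxidase (ENSMUSG00000063856.7, 9:108338903-108340343, plus strand), had a level of 1405 CPM (1329.7 to 1483) in mKO2high, 1603 CPM (1544 to 1665) in mKO2low, 1634 CPM (1572 to 1698) in mKO2neg and 1164 CPM (1124 to 1205) in mAG+. These gate sums differed by at most 1.40 times, with mKO2low and mKO2neg overlapping and mAG+ lowest. With equal weight for each cell mKO2high was lowest instead, at 1028 CPM, and mKO2low highest, at 1723 CPM. The place of mKO2high depended on how cells were weighted. The median mKO2high cell had 989.9 CPM, below the 1129.8 CPM of the median mAG+ cell, and a single cell held 19.3% of the mKO2high counts.

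Cat, catalase (ENSMUSG00000027187.10, 2:103453849-103485160, minus strand), had levels of 76.0 CPM (59.4 to 95.9) in mKO2high, 92.8 CPM (78.9 to 108) in mKO2low, 106 CPM (91.0 to 123) in mKO2neg and 115 CPM (103 to 129) in mAG+. All neighbouring gates overlapped. At equal depth the share of cells with a Cat count was nearly the same in every gate, between 28.2% and 31.2%, while without thinning it ranged from 37.5% in mKO2high to 81.2% in mAG+, the gate with the deepest cells. Weighting every cell equally gave 367 CPM in mAG+, against 115 CPM for the gate sum. That mean lies above the highest mAG+ cell with at least 5000 counts (359 CPM). Of 39 mAG+ cells with a Cat count, 38 had this depth, so a single shallower cell carries the mean.

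Transcripts of the transcription factors Foxo3 (ENSMUSG00000048756.11, 10:42181841-42276755, minus strand) and Foxo1 (ENSMUSG00000044167.6, 3:52268336-52353221, plus strand) were scarce. Foxo3, the family member best known for its role in blood stem cells, had 18, 75, 68 and 83 counts, or 19.3 CPM (11.4 to 30.5) in mKO2high, 44.0 CPM (34.6 to 55.2) in mKO2low, 42.3 CPM (32.8 to 53.6) in mKO2neg and 29.7 CPM (23.7 to 36.9) in mAG+. From gate sums it was lowest in mKO2high, below mKO2low by more than counting error, and neighbours in the order overlapped. Thinned to 5000 counts per cell, mAG+ was lowest instead, at 31.1 CPM against 35.9 CPM in mKO2high. Equal weight for each cell gave 24.8 CPM in mAG+ and 25.4 CPM in mKO2high, so the lowest gate of Foxo3 depended on the weighting. Foxo3 was detected in 7, 10, 16 and 16 cells, and at 5000 counts in 10.3%, 10.4%, 23.3% and 11.1%.

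Foxo1 had 8, 23, 20 and 24 counts, or 8.56 CPM (3.70 to 16.9) in mKO2high, 13.5 CPM (8.56 to 20.3) in mKO2low, 12.4 CPM (7.59 to 19.2) in mKO2neg and 8.60 CPM (5.51 to 12.8) in mAG+. All intervals overlapped, so no difference between gates was detectable at this depth. The counts came from 3, 9, 6 and 5 cells, and 1 cell held between 43.5% and 62.5% of them in each gate. Foxo1 is also known as a regulator of early B cells. In mAG+, 21 of the 24 Foxo1 counts and 56 of the 83 Foxo3 counts lay in the 14 cells with counts in at least 2 B cell markers, which held 38.6% of all counts of the gate. Without these cells, Foxo1 was at 1.75 CPM (3 counts) and Foxo3 at 15.8 CPM in mAG+. For Txnip the same step moved the mAG+ level only from 292 to 298 CPM. The other gates did not all show this share for Foxo1 and Foxo3. In mKO2neg, 6 such cells held 29.1% of all counts, 4 of 20 Foxo1 counts and 21 of 68 Foxo3 counts. In mKO2low, 3 such cells held 6.80% of all counts, 2 of 23 Foxo1 counts and 0 of 75 Foxo3 counts. In mKO2high, 3 such cells held 3.07% of all counts, 1 of 8 Foxo1 counts and 1 of 18 Foxo3 counts.

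**Figure D2:**
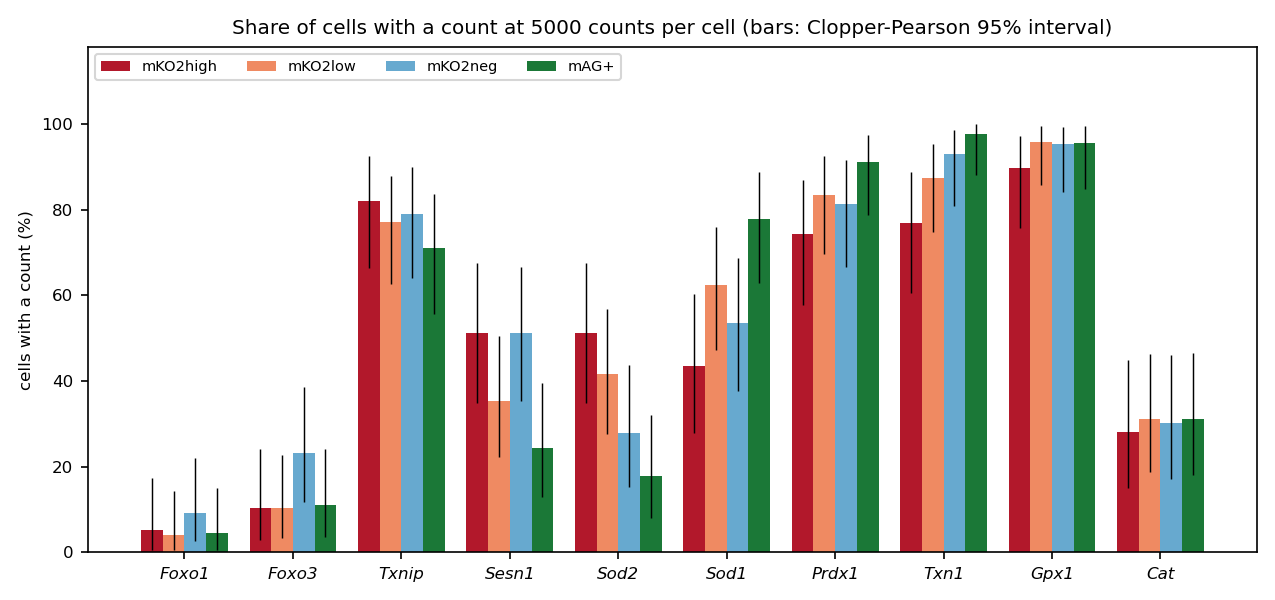
Share of cells with at least 1 count of each gene after every cell was thinned to 5000 counts, in percent, by gate, with Clopper-Pearson 95% intervals. Sod2 goes down from 51.3% in mKO2high to 17.8% in mAG+, Sod1 and Txn1 are highest in mAG+, and Cat stays between 28.2% and 31.2%.

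Within their shared library, mKO2low was compared with mKO2high, gates whose cells both carry the orange G0 and G1 marker at different brightness. All 10 genes had at least 10 counts over both gates. The log2 ratio of mKO2low over mKO2high was above 0 for 7 genes and below 0 for 3, where 52.2% and 47.8% of the 10901 genes measured were above and below. Foxo3 alone was at least 2-fold higher (19.6% of all genes were) and no member was at least 2-fold lower (15% of all genes were). The median of the 10 genes was 0.25, beside 0.05 for all genes. The counts of the 10 genes were close to the shares of all genes.

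Sesn1, Sod2 and Txnip were lower in mKO2low than in mKO2high by more than counting error. Their log2 ratios were -0.98 (95% interval -1.30 to -0.67) for Sesn1, -0.92 (-1.18 to -0.66) for Sod2 and -0.67 (-0.81 to -0.52) for Txnip. Weighting every cell equally gave -0.52 for Sesn1 and -0.43 for Txnip. Prdx1, Sod1, Txn1 and Gpx1 were higher in mKO2low beyond counting error, with log2 ratios of 0.64 (0.46 to 0.83), 0.39 (0.14 to 0.65), 0.22 (0.06 to 0.38) and 0.19 (0.10 to 0.29). At 5000 counts per cell the Prdx1 ratio was 0.18 and that of Gpx1 0.67. Foxo3 had the largest ratio, 1.16 (0.44 to 2.02), from 18 and 75 counts, and it was 0.32 at equal depth and 0.72 with equal weight, under 2-fold in both. The intervals of Cat (0.28, -0.13 to 0.71) and Foxo1 (0.61, -0.55 to 2.03) held 0. The summed level of megakaryocyte markers was also lower in mKO2low (196 against 424 CPM). Of 5 measured markers, 4 were lower and 1 was at least 2-fold higher. Cells with counts in at least 2 of these markers numbered 15 in mKO2low and 11 in mKO2high. The part of these markers in the ratios above was not tested.

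The second comparison set mAG+ against mKO2neg, which share the other library and differ in the green S to M phase marker. The log2 ratio of mAG+ over mKO2neg was above 0 for 4 genes and below 0 for 6, beside 52.8% and 47.2% of 12115 genes. Txnip was the only gene at least 2-fold lower (14.6% of all genes were), and none was at least 2-fold higher (21.2% of all genes were). The median was -0.34, beside 0.06 for all genes.

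Txnip had a log2 ratio of -1.04 (-1.18 to -0.90), with 965 counts in mKO2neg and 815 in the deeper mAG+ gate. Its partner Txn1 went the other way, at 0.49 (0.39 to 0.59), and at 0.87 when cells were thinned to equal depth. Sod1 was also higher in mAG+, at 0.68 (0.51 to 0.85), and Prdx1 by less, at 0.21 (0.10 to 0.33). Prdx1 reached 0.36 without the highest cell of each gate, and Sod1 reached 1.09 without the cells with B cell marker counts. Gpx1 was lower in mAG+, at -0.49 (-0.56 to -0.42), as was Sesn1, at -0.44 (-0.73 to -0.16). The Sesn1 ratio was larger in size at equal depth, -1.18, and -0.995 without the cells with B cell marker counts.

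The interval of Foxo3 in this comparison just missed 0 (-0.50, -0.99 to -0.02). Foxo1 (-0.51, -1.45 to 0.40), Sod2 (-0.24, -0.56 to 0.08) and Cat (0.12, -0.15 to 0.39) had intervals that held 0. Sod2 was at 0.14 without the highest cell of each gate. Cat was at -0.063 at equal depth and at 1.63 with equal weight, carried by a single shallow mAG+ cell. The B cell list summed to 314 CPM in mAG+ and 127 CPM in mKO2neg. Without the cells that carried its markers Foxo3 was at -1.35 and Foxo1 at -2.59.

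**Figure D3:**
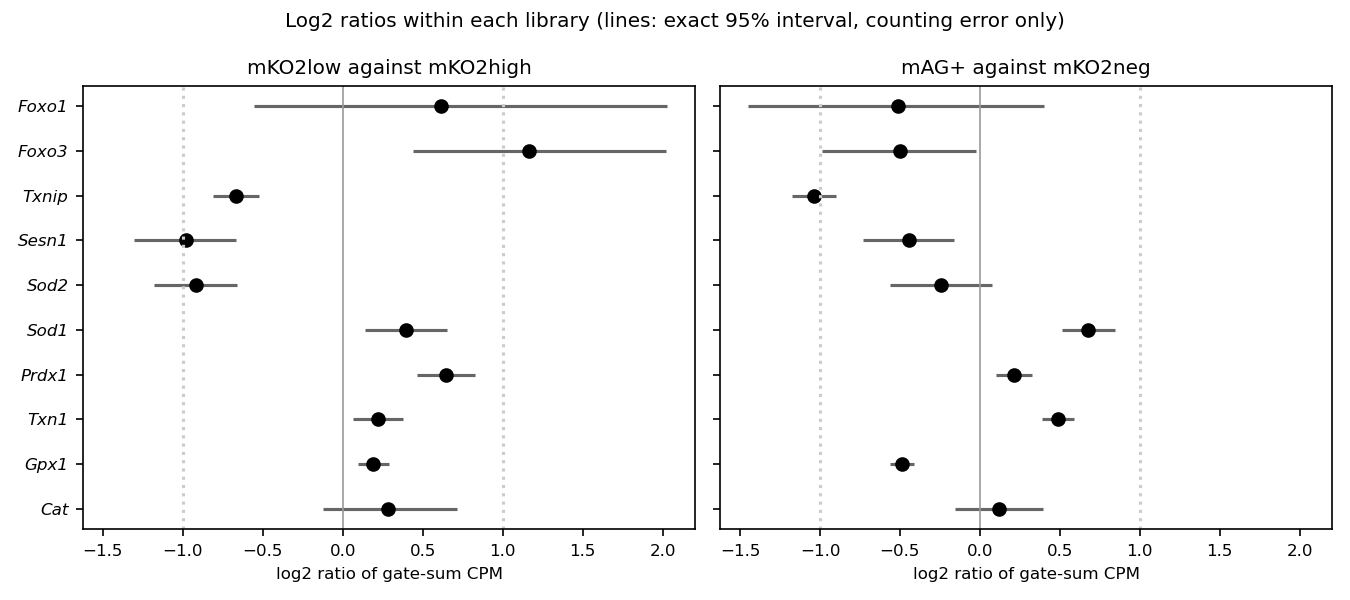
Log2 ratio of gate-sum CPM for the 10 genes within each library, with exact 95% intervals for counting error, a solid line at 0 and dotted lines at 2-fold. Left, mKO2low against mKO2high, with Sesn1, Sod2 and Txnip below 0; right, mAG+ against mKO2neg, with Txnip at -1.04 and Sod1 at 0.68.

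Across libraries, mKO2neg and mKO2low had similar levels of most of the 10 genes. The log2 ratio of mKO2neg over mKO2low was above 0 for 6 genes and below 0 for 4 (50.5% and 49.5% of 11375 genes), no gene was 2-fold higher (15.3%) or lower (16.7%), and the median was 0.05, beside 0.01 for all genes. Sod2 was lower in mKO2neg (-0.72, -1.03 to -0.41), and Txnip (0.29, 0.16 to 0.43) and Txn1 (0.23, 0.11 to 0.36) were higher. Weighting every cell equally put Txn1 at -0.073. The intervals of the other 7 genes held 0.

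The ends of the reporter order, mAG+ and mKO2high, also lie in different libraries. The log2 ratio of mAG+ over mKO2high was above 0 for 6 genes and below 0 for 4 (54.3% and 45.7% of 11849 genes), with a median of 0.30 beside 0.12 for all genes. Sod1 alone was at least 2-fold higher, at 1.04 (26.2% of all genes were 2-fold higher), and it was under 2-fold at equal depth (0.82), with equal weight (0.92) and after dropping each gate's deepest cell (0.77). Txnip at -1.41, Sod2 at -1.88 and Sesn1 at -1.16 were at least 2-fold lower (17.1% of all genes were). Txn1 was at 0.94 and Prdx1 at 0.92. Gpx1 was at -0.27 from gate sums and at 0.18 at equal depth, so its direction depended on the weighting. Foxo3 was at 0.61 from gate sums, with an interval that held 0 (-0.12 to 1.45), and at -0.18 at equal depth. The Cat ratio was 0.60 (0.23 to 0.99) and 0.36 at equal depth, and with equal weight it was 2.53, carried by the same shallow mAG+ cell. This comparison shares its gates with those within the libraries.

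**Figure D4:**
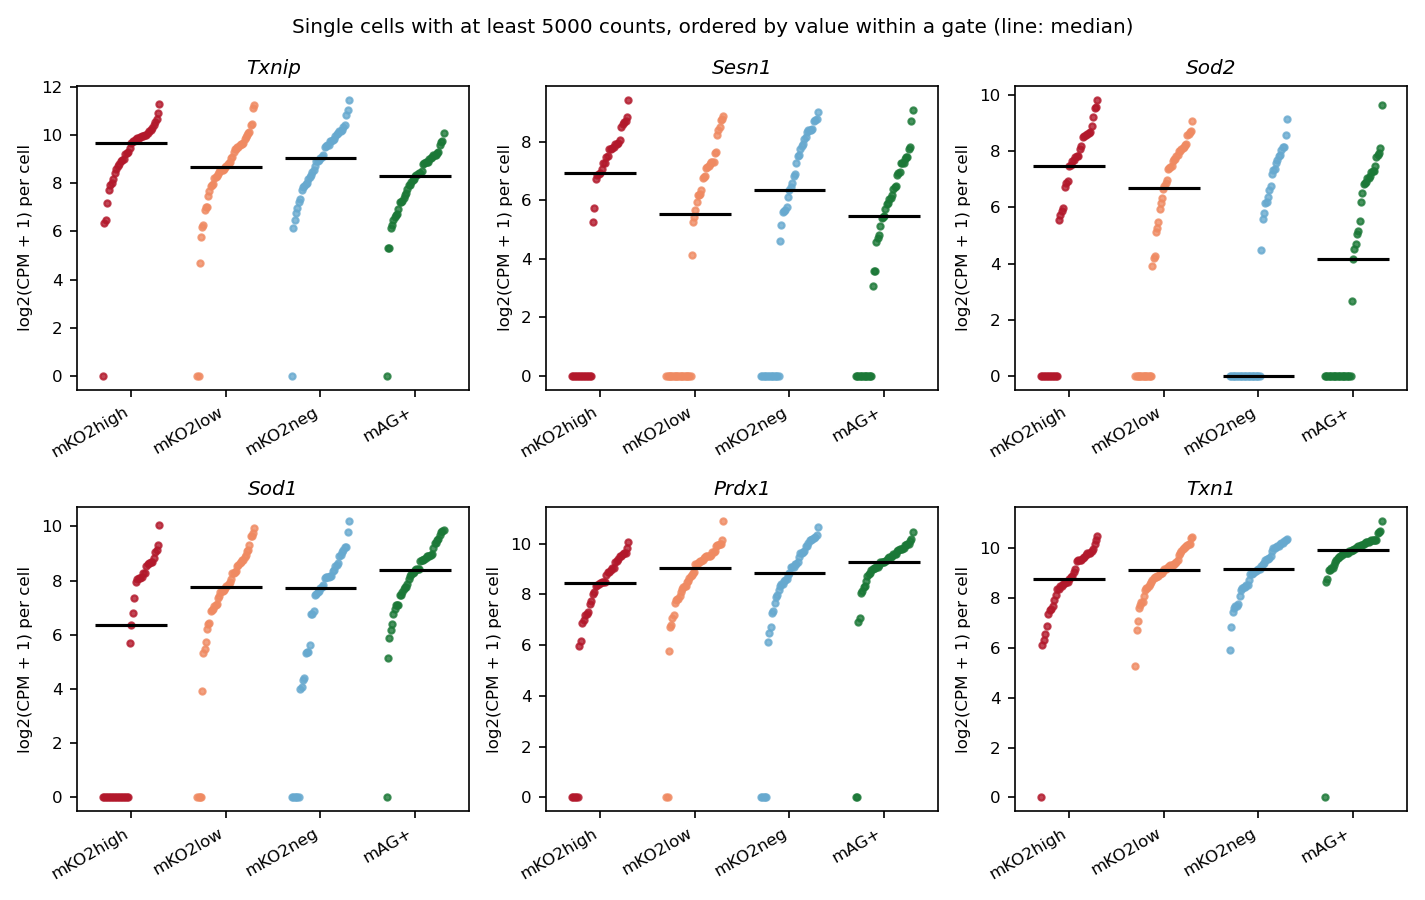
Txnip, Sesn1, Sod2, Sod1, Prdx1 and Txn1 in single cells with at least 5000 counts, as log2(CPM + 1), ordered by value within each gate, with a line at the median. Cells without a count lie at 0. Of 45 mAG+ cells, 42 lie above the mKO2high median for Txn1, while cells of all gates overlap for Txnip.

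Single cells within a gate were also compared, as a description over 39 mKO2high, 48 mKO2low, 43 mKO2neg and 45 mAG+ cells with at least 5000 counts, which share library and gate and differ in depth. Txnip and the summed G2/M level had Spearman correlations of 0.07, -0.04, -0.27 and 0.12 from mKO2high to mAG+. For Txn1 the same values were -0.09, 0.18, -0.05 and -0.09. Among all pairs of the 10 genes in all gates, Sod1 with Txn1 (0.41) and Sod1 with Prdx1 (0.37) in mAG+ had the highest correlations. In mKO2high, mKO2low and mKO2neg, Sod1 with Txn1 was at -0.05, 0.05 and 0.14. Sod1 with Prdx1 was at 0.02, 0.02 and -0.06 there. Foxo3 with Gpx1 was at -0.37 in mAG+. Such values from sparse counts are weak.

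The genes most like each member across cells were taken by the mean Spearman correlation over both libraries, among 1808 genes. The mKO2neg and mAG+ library gave 88 cells and the mKO2high and mKO2low library 87. Each library pools the cells of its gates, so a difference between gates enters these values. Txnip was closest to Pik3ip1 (0.28), an inhibitor of PI3 kinase, Gm19590 (0.28) and Tsc22d3 (0.27), a glucocorticoid-induced leucine zipper protein. Txn1 was closest to Tuba1b (0.38), H2afz (0.37) and Ppia (0.35), and Prdx1 to Hint1 (0.37), Gapdh (0.37) and Lsm8 (0.36). Sesn1 was closest to Itm2b (0.32) and Hoxa9 (0.27). The nearest genes of Sod1 (Gnb2, 0.31), Cat (Mycbp2, 0.29), Gpx1 (Slc25a4, 0.28) and Sod2 (Psmd4, 0.27) had values of the same small size.

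The regulators upstream of Foxo were compared within each library as well. In mAG+ against mKO2neg, 14 of 15 genes of this list were measured, 8 higher and 6 lower, 4 at least 2-fold higher and 1 at least 2-fold lower, with a median log2 ratio of 0.26. The shares of all genes past 2-fold were 21.2% higher and 14.6% lower. For this list and those below, 52.8% of all genes were higher in mAG+ and 47.2% lower. Akt1, a kinase that acts on Foxo, was at 107 against 52.2 CPM (log2 ratio 1.03), and Pdpk1, which activates Akt, at 75.6 against 33.6 CPM (1.16). Sgk1, another kinase that acts on Foxo, was the gene at least 2-fold lower, at 8.60 against 29.2 CPM (-1.71), and is named after its value was seen. Subunits of PI3 kinase differed in direction. Pik3cd, a catalytic subunit, was at 44.4 against 83.3 CPM (-0.90) and Pik3r1, a regulatory subunit, at 147 against 218 CPM (-0.57). The catalytic subunit Pik3ca, also named after its value was seen, was at 48.4 against 33.6 CPM (0.52). Stk4, a kinase that also acts on Foxo, was at 123 against 203 CPM (-0.72). Between mKO2low and mKO2high, 13 genes were measured, 8 higher and 5 lower, with a median of 0.11. Of all genes, 52.2% were higher in mKO2low and 47.8% lower, which applies to the lists below too. Pik3r1 was at 153 against 240 CPM (-0.64) and Pdpk1 at 38.7 against 58.9 CPM (-0.59), while Pik3ca was at 21.7 against 13.9 CPM with an interval that held 0.

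Known Foxo targets did not share a direction. In mAG+ against mKO2neg, 14 of 16 were measured, 7 higher and 7 lower, 5 at least 2-fold higher and 2 at least 2-fold lower (21.2% and 14.6% of all genes), with a median log2 ratio of -0.03. Ccng2, an atypical cyclin of resting cells, was at 71.3 CPM in mAG+ and 14.9 CPM in mKO2neg (2.22). Cdkn1b, the cell cycle inhibitor p27, was at 27.9 against 10.6 CPM (1.37). Pik3ip1 was lower in mAG+, at 93.5 against 231 CPM (-1.30), with Tsc22d3 at 186 against 328 CPM (-0.82) and Cited2, a transcriptional coregulator, at 73.4 against 113 CPM (-0.61). Of the 14 measured in mKO2low against mKO2high, 6 were higher and 8 lower, with a median of -0.20. Klf2, a regulator of quiescence in lymphocytes, was at 296 against 164 CPM (0.85), and Insr, the insulin receptor, at 38.7 against 63.2 CPM (-0.69).

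The other genes around Txnip are arrestins of its family, the Mondo factors, thioredoxin reductases and glucose transporters. In mAG+ against mKO2neg, 6 of 11 measured genes were higher and 5 lower, with a median of 0.06. Arrdc3 (0.69) and Slc2a1, a glucose transporter (0.50), were higher with intervals that reached 0. In the mKO2low comparison with mKO2high, 7 were higher and 4 lower, with a median of 0.31. Slc2a1 was at 35.2 against 73.9 CPM (-1.05), so it was higher in mKO2high, as Txnip was.

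Peroxiredoxins, glutaredoxins and thioredoxin enzymes formed a list of 16 genes. In mAG+ against mKO2neg, 8 were higher and 8 lower, and the median was 0.02. At least 2-fold higher was 1 gene and at least 2-fold lower 1 gene (21.2% and 14.6% of all genes). Prdx4, the peroxiredoxin of the endoplasmic reticulum, was at 282 against 104 CPM (1.43), and Prdx2, a cytosolic peroxiredoxin, at 336 against 505 CPM (-0.59). Glrx3 was at 209.9 against 126 CPM (0.73) and Glrx2, a mitochondrial glutaredoxin, at 41.6 against 64.7 CPM (-0.63). Relative to mKO2high, mKO2low had 9 of 15 higher and 6 lower, with a median of 0.06. Prdx5 was at 376 against 245 CPM (0.61), Glrx5, of iron-sulfur cluster assembly, at 114 against 64.2 CPM (0.82), and Prdx4 at 103 against 189.5 CPM (-0.87).

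In the glutathione list, 10 of 15 measured genes were lower in mAG+ than in mKO2neg and 5 were higher, with 4 at least 2-fold lower, none at least 2-fold higher (14.6% and 21.2% of all genes) and a median of -0.20. Gsto1, an omega-class glutathione transferase, was at 109.6 against 292 CPM (-1.41). Pgd, of the pentose phosphate pathway that supplies NADPH, was at 32.2 against 67.1 CPM (-1.05), and Gstm1, a mu-class transferase, at 163 against 277 CPM (-0.76). Gpx1, which uses glutathione, was lower there too (-0.49). In mKO2low against mKO2high, 7 of 14 were higher and 7 lower, with a median of -0.04, among them Mgst1 at 44.6 against 22.5 CPM (0.97), Gstp1 at 126 against 78.2 CPM (0.68) and Gsto1 at 254 against 364 CPM (-0.52).

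Of the Nrf2 and iron genes, 6 of 14 were higher and 8 lower in mAG+, 4 of them at least 2-fold lower (14.6% of all genes), with a median of -0.21. The ferritin chains, which store iron, were both lower: Ftl1 was at 506 against 985 CPM (-0.96) and Fth1 at 1973 against 2881 CPM (-0.55). Mafg, a small Maf partner of Nrf2, was at 8.24 against 50.4 CPM (-2.55), and Keap1, the inhibitor of Nrf2, at 45.1 against 29.2 CPM (0.62). Msrb1 (0.51) and Hmox2 (0.51) had intervals that held 0. In mKO2low against mKO2high, 6 of 14 were higher and 8 lower, with a median of -0.22. Mafg was at 67.5 against 19.3 CPM (1.77), Nfe2l2, which encodes Nrf2, at 120.4 against 70.7 CPM (0.76), and Msra, a methionine sulfoxide reductase, at 102 against 171 CPM (-0.75).

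The oxidant-producing enzymes were sparsely measured. In mAG+ against mKO2neg, 7 of 10 had enough counts, 2 higher and 5 lower, with a median of -0.27, and Cyba, a subunit of the NADPH oxidase, was at 204 against 344 CPM (-0.75). In mKO2low against mKO2high, 4 were measured, 2 higher and 2 lower, with a median of -0.01.

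**Figure D5:**
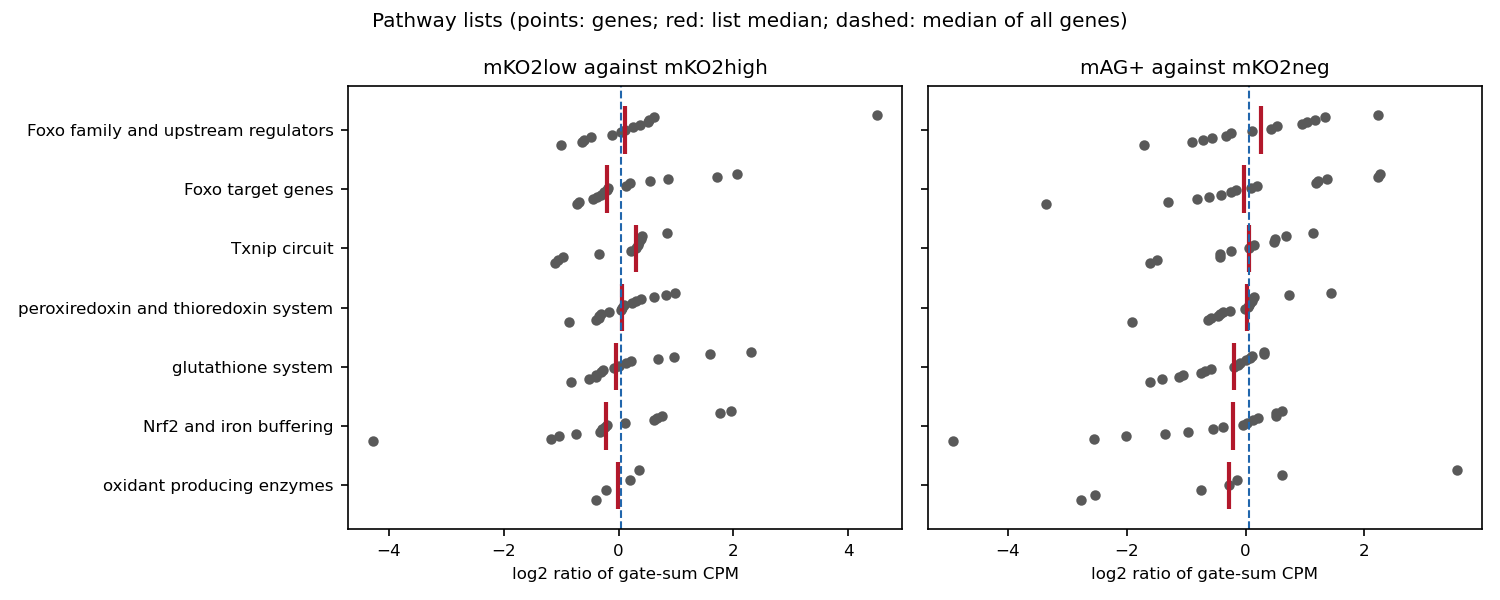
Log2 ratios of gate-sum CPM for the genes of 7 pathway lists within each library. Each point is a gene, red bars mark list medians and the dashed line marks the median of all genes; points of every list lie on both sides of 0 in both panels, and the glutathione list has its median at -0.20 in mAG+ against mKO2neg.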

How the data were processed

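The sequenced material was enriched for transcript 3′ ends in a Smart-seq2 variant, per the labels' protocols. The values are the authors' deposited whole-number counts per gene and cell, with no normalization seen in them. HISAT2, HTSeq 0.11.3, Seurat and build mm10 are named without roles, per the submitters' processing notes. The annotation release, the strand setting, molecular identifiers and filters were not given in the sources used here. Of 53378 rows, 53273 were matched to GENCODE vM21 by unversioned ID, and 105 rows with 0.222% of counts were not. The older release's order was not used here.

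Each gene was read from the row 1 gene before it, as described in the report. Counts were summed per gate (48 cells each) and scaled to CPM. Log2 ratios had a prior count of 1, in proportion to each gate's total, and genes with at least 10 counts over both gates were measured. Intervals are exact: Poisson for levels, conditional binomial for ratios, Clopper-Pearson for shares, all at 95%. The floor for a count of 0 was 3 counts per gate, 3.21, 1.76, 1.86 and 1.07 CPM from mKO2high to mAG+. No cells were removed, and doublets were not called since cells were taken singly. The equal-depth values thin each cell to 5000 counts and leave out 9, 0, 5 and 3 shallower cells. The ratio code was tested on simulated data. Python 3.11.15, numpy 2.4.6, pandas 2.3.3 and scipy 1.17.1 were used, with edgeR 4.0.16 and DESeq2 1.42.0 (R 4.3.3) only for size factors of the gate sums. No test between gates was run, since each gate is 1 sample.

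The members and lists were chosen with earlier results of these data known. Named genes are the 10 members and, in each of 7 pathway lists and each comparison within a library, up to 3 genes per direction with the largest log2 ratio. They needed an absolute ratio of at least 0.5, at least 50 counts, at least 12 cells with a count in the higher gate and at most 25% of per-cell CPM in 1 cell. Genes most like a member were the 3 with the highest mean correlation, for members and genes with a count in at least 50% of the cells of each library, some of which are left out of the text. Some genes that these rules name are not reported here. Alternatives were edgeR's and DESeq2's size factors, equal weight for cells, at least 1000 genes and under 20% mitochondrial counts per cell, thinning, leaving out the deepest cell or the highest cell of a gene, a prior count of 0.5, no minimum count and labels as deposited. Leaving out cells with counts in at least 2 of 8 B cell markers was added after seeing the data. Promoter sequences are from RefSeq (GRCm38.p6), where all 10 genes were found, with 11 windows.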

Additional observations from a re-analysis of the deposited data

How the results depend on the processing

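The members' median log2 ratio was set beside a range from the median of their lower interval limits to the median of their upper limits. This range is not a counting interval of the median itself. The median stayed within it under 39 of 40 alternatives that kept the displaced reading. Leaving out cells with counts in at least 2 B cell markers, an alternative chosen after seeing the data, moved it to -0.26 for mAG+ against mKO2high (0.30 with all cells). With labels as deposited, 3 or 4 members passed the minimum count, and the median was 0.41 for mAG+ against mKO2neg, -1.36 for mKO2neg against mKO2low and -0.81 for mAG+ against mKO2high. Of 356 single-gene ratios under the other alternatives, 302 stayed within their interval. In 26 the sign changed, 23 of them where the interval of all cells held 0. In the other 3 the interval had not held 0: these were Txn1 in mKO2neg against mKO2low with equal weight for each cell (-0.073), and Gpx1 in mAG+ against mKO2high with equal weight (0.15) and at equal depth (0.18). Under the deposited labels Sod1 changed sign to -0.0099 in mKO2low against mKO2high and to -1.15 in mAG+ against mKO2high. A member's 2-fold call was lost with equal weight for Txnip in mAG+ against mKO2neg (-0.91) and for Sesn1 in mAG+ against mKO2high (-0.86). The causes were not tested. Thinning moved 17 of 40 shares of cells beyond their interval. Depth limits Foxo1 and Foxo3 most, with 75 and 244 counts in all. No paired analysis was possible because each gate is 1 sample and no test was made.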
